A study of Mus with 7 samples.

Results

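Fetal liver-derived macrophages (FLMs) that had received only vehicle were compared before and after 1 h of LPS, the bacterial lipopolysaccharide that macrophages sense through TLR4. FLMs are self-renewing macrophages grown from mouse fetal liver, here wild type, and kept in 30 ng/mL GM-CSF in every group. Both libraries came from cells held for 24 h in 0.25% FBS with 8.3 µM BSA, which is the vehicle (Veh), and the 1 h group, Veh.LPS.1, was then given 20 ng/mL LPS while the 0 h group, Veh.LPS.0, was collected without it. Con was in 10% FBS without the 24 h in vehicle, the DHA groups received 25 µM docosahexaenoic acid on the same BSA, and Veh.LPS.4 had 4 h of LPS. Per the paper, start times were staggered so that all groups were collected together. For the LPS groups the vehicle medium was taken off and replaced by treatment medium with LPS, so effects of LPS and of the change of medium cannot be told apart.

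Single cells were captured in droplets, and each molecule of RNA was tagged with a unique molecular identifier (UMI). Barcodes with more than 20000 UMIs, at least 2000 genes and under 20% of UMIs from mitochondrial genes were kept, which left 2481 of 4461 barcodes in Veh.LPS.0 and 3073 of 5705 in Veh.LPS.1, or 5554 of the 11640 cells kept in the 7 libraries of the series. The median cell held 36897 UMIs at 0 h and 29369 at 1 h, and only 1 barcode occurred in both libraries. UMIs were summed over the cells of a library and scaled to CPM, the UMIs of a gene per 1000000 UMIs of its library, with totals of 98763388 and 94540624 UMIs. The labels do not say how many livers or cultures a library came from. Each condition had 1 library, which leaves every difference without a replicate check and without a test, and the 95% intervals on ratios cover counting error only. Fewer cells that use a gene and less RNA per cell cannot be told apart in such sums, and the values per cell are given further on. The 9 macrophage markers, among them Spi1, Csf1r, Adgre1 and Lyz2, summed to 5928 and 6050 CPM, with log2 ratios between -0.16 and 0.42. Markers of 8 other cell types summed to at most 6.73 CPM per type, the highest for hepatocyte genes at 5.55 and 6.73 CPM, and to at most 1.31 CPM for each of the other types. Among the hepatocyte genes, Afp was in 7.70% and 8.04% of cells thinned to 20000 UMIs. In those cells Alb and Ttr had no UMI, and Apoa1 and Apoa2 were in at most 0.195%. Of the neutrophil markers 4 of 6 had no UMI in either library, and of the lymphoid markers 4 of 6. Since these markers showed no other cell type, RNA that floats free between droplets could not be gauged, and shares of cells with a UMI include it.

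LPS binds CD14 and the TLR4 complex at the cell surface. The adaptors MyD88 and TRIF then switch on MAP kinases, which drive immediate-early genes, and NF-κB, which drives cytokine and chemokine genes together with its own inhibitors. A later wave depends on interferon β that the cells secrete and on the STAT and IRF factors it activates. The transcripts of the first wave are usually short-lived, and many of their products shut the response down again.

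After 1 h of LPS, 138 of the 5777 genes that were detected in 50% or more of cells in one library or the other were more than 2-fold higher, which is 2.39% of the genes examined, and 35, or 0.606%, were more than 2-fold lower. The increases were also larger. Of the 138 genes, 61 were higher by more than 4-fold, 36 by more than 8-fold and 18 by more than 16-fold, whereas 3 of the 35 were lower by more than 4-fold. For the rest little moved, since the log2 ratio over all 5777 genes had a median of -0.09 and an interquartile range of 0.24. The 138 higher genes took up 1.16% of all UMIs at 0 h and 5.86% at 1 h, and the 35 lower genes 0.269% and 0.102%. Of the 138, 63 had a UMI in under 50% of the 0 h cells and were examined only because of their 1 h level. Of the 35, 31 had a UMI in under 50% of the 1 h cells and were examined only because of their 0 h level. At 1.5-fold, 253 genes (4.38%) were higher and 120 (2.08%) lower. Within 0.05 log2 of the 2-fold limit, 15 genes lay just inside and 20 just outside.

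**Figure D1:**
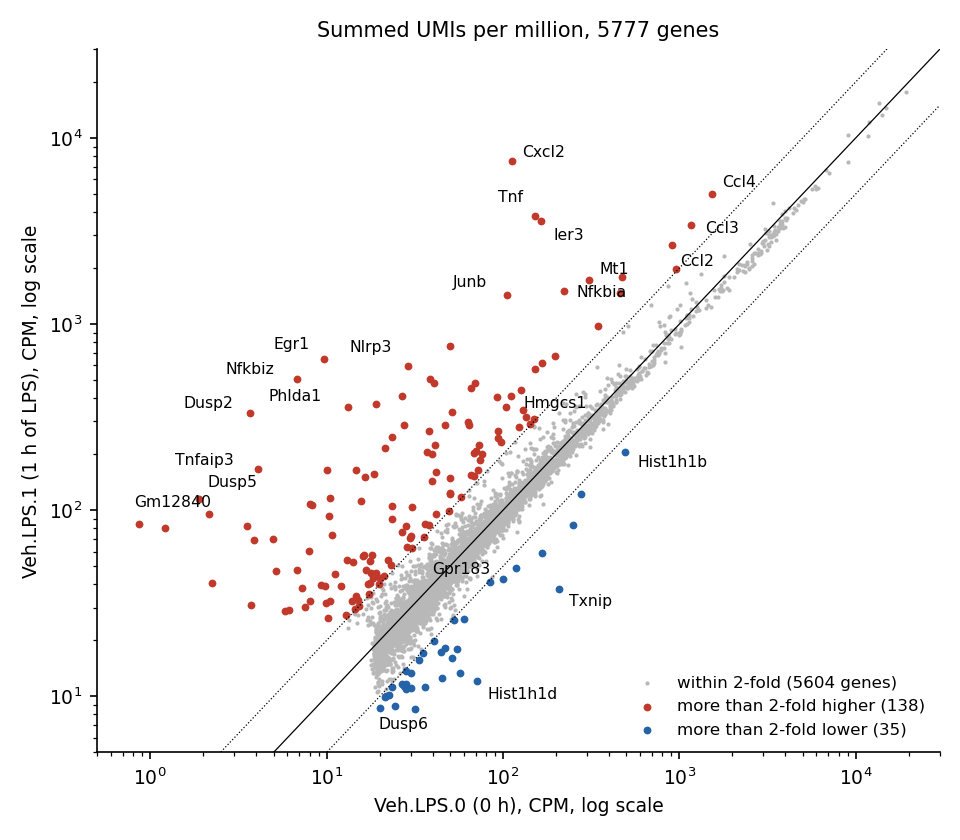
Level of each of 5777 genes in Veh.LPS.0 (x axis) and Veh.LPS.1 (y axis), in CPM on log scales, with 1 point per gene, a solid line at equal levels and dotted lines at 2-fold. The 138 higher genes (red) reach much farther from the line than the 35 lower genes (blue), up to Cxcl2 at 7543 CPM from 112 CPM.

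The highest ratio was that of Gm12840, a transcript without a RefSeq entry that went from 0.861 to 84.6 CPM. Dusp2 (ENSMUSG00000027368), a phosphatase of MAP kinases, went from 3.68 to 335 CPM, which is 91.2-fold (82.2 to 101). It was followed by Nfkbiz, Cxcl2, Egr1, Egr2 and Dusp5, all above 60-fold, and by Errfi1, an inhibitor of the EGF receptor, at 2.17 and 95.3 CPM. Measured by the gain in CPM instead, Cxcl2, Tnf, Ccl4, Ier3, Ccl3 and Ccl2 came first. Ftl1 and Malat1, which are among the 10 largest gains because they are so abundant, had log2 ratios of only 0.20 and 0.17.

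**Figure D2:**
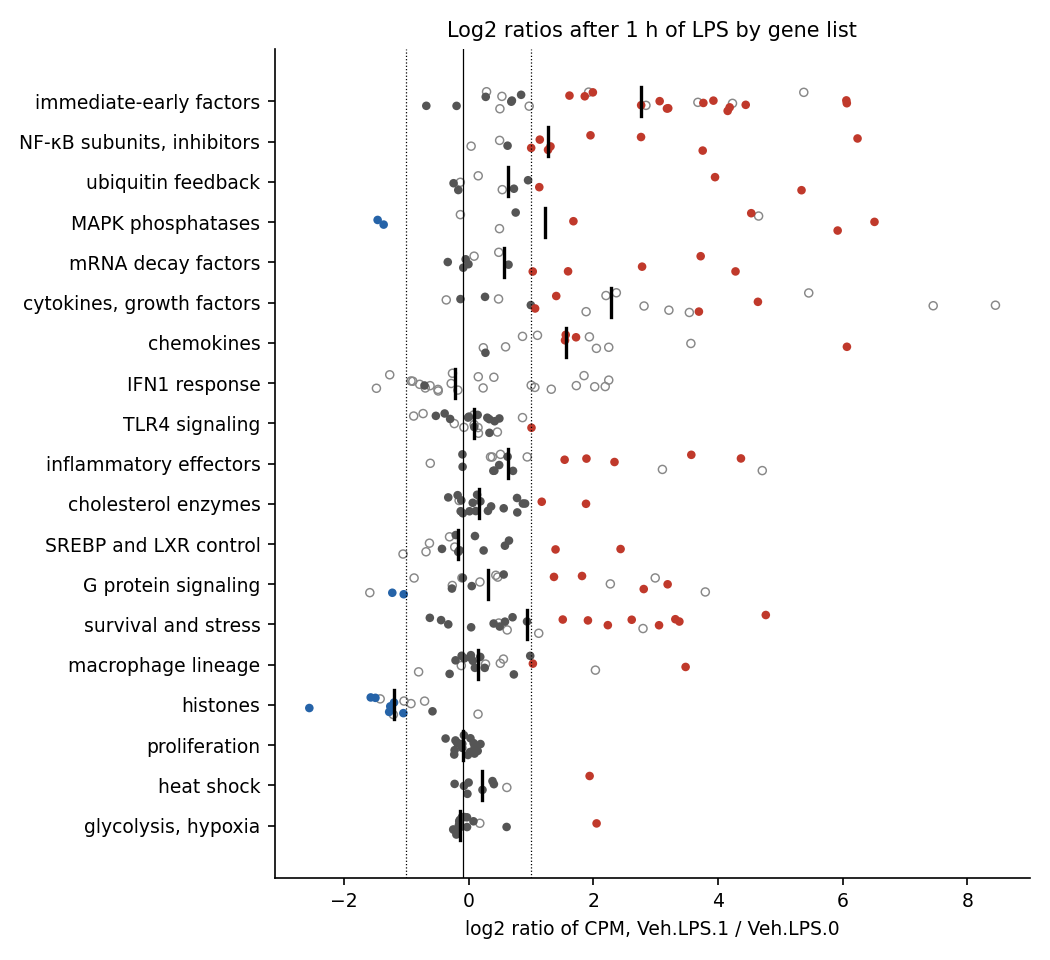
Log2 ratio of CPM, Veh.LPS.1 over Veh.LPS.0, for the genes of 19 lists with at least 10 UMIs over both libraries. Filled points were detected in 50% or more of cells in one library or the other (red more than 2-fold higher, blue more than 2-fold lower), and open points were not. Il1a, Il1b and the other genes without UMIs at 0 h are drawn at their lower bound. Bars mark medians of the list genes with at least 10 UMIs. The solid line marks the median of the genes within the share limit, at -0.09. Over all genes with at least 10 UMIs the median was -0.12.

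Most genes of the immediate-early list, which held Ier3 besides transcription factors, were higher. Of the 30 genes listed, 20 were within the limit on the share of cells, with a median log2 ratio of 2.92. Of these 20, 14 were more than 2-fold higher and none lower, beside 2.39% and 0.606% of all genes. Some, such as Egr2, met the limit only through the 1 h library where they were high. With no limit on the share of cells, 19 of 29 with at least 10 UMIs were more than 2-fold higher and none lower. Of all genes with as many UMIs, 6.29% and 6.26% were. Egr1 (ENSMUSG00000038418), a zinc finger factor induced through ERK, went from 9.66 to 648 CPM, a ratio of 67.0 (62.9 to 71.5). Egr2 rose alongside it from 1.20 to 80.4 CPM and Egr3 from 3.90 to 69.5 CPM. Among the AP-1 subunits, Junb had the highest level at 1427 CPM, up from 105 CPM, and Jun rose from 66.3 to 451 CPM. Fos rose 8.37-fold (7.97 to 8.79), to 156 CPM from 18.6 CPM, and Fosl1 from 10.3 to 93.3 CPM, while Jund had 99.4 and 178 CPM and stayed under the limit. Fosb, with 0.223 and 9.26 CPM, was in too few cells to be within the limit. Ier3, an early response gene that guards against TNF-driven death, rose from 165 to 3592 CPM and Ier2 from 50.4 to 766 CPM. The KLF factors stood apart from these, since Klf6 had a log2 ratio of 0.68 and Klf4 one of -0.68, with 71.4 CPM at 0 h and 44.6 CPM at 1 h.

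Among NF-κB genes the 3 highest ratios were those of Nfkbiz, Nfkbid and Nfkbia, which belong to the IκB family. In this list 8 of 9 genes within the limit were more than 2-fold higher, beside 2.39% of all genes. Without the limit it was 8 of 11, beside 6.29%. The median log2 ratio of the 9 was 1.31. Nfkbiz, an atypical nuclear IκB protein needed for secondary cytokine genes, stood at 6.75 CPM before and 510 CPM after LPS, 75.5-fold apart (70.0 to 81.6). Nfkbia, which encodes IκBα, the inhibitor that holds NF-κB in the cytoplasm, was far more abundant and rose from 221 to 1503 CPM. Nfkbid, another nuclear IκB, rose from 8.03 to 108 CPM. The subunits of the factor changed less than these 3 genes. Rel rose 3.88-fold, Nfkb1 2.48-fold, Rela 2.42-fold and Relb 2.21-fold, and Nfkb2 had a ratio of 1.54.

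Ubiquitin-linked feedback was carried by a few genes. Tnfaip3 (A20), which edits ubiquitin chains on NF-κB signaling proteins, rose 40.5-fold (36.7 to 44.8), to 166 CPM from 4.10 CPM. Traf1, an adaptor of TNF receptors, rose from 26.6 to 412 CPM, and Tnip1, a partner of A20, from 38.0 to 83.4 CPM. These were the 3 of 7 genes within the limit that passed 2-fold, beside 2.39% of all genes that did so upward. They were also the 3 of 10 that did so without the limit, beside 6.29%. Tnip3 had 104 and 202 CPM, just short of 2-fold. Cyld and Otulin, which also trim ubiquitin chains, had log2 ratios of -0.24 and -0.17.

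The phosphatases that inactivate MAP kinases split in opposite directions. Of 7 within the limit, Dusp2, Dusp5, Dusp1 and Dusp16 were more than 2-fold higher and Dusp6 and Dusp7 more than 2-fold lower. The shares among all genes were 2.39% and 0.606%. A gene can meet this limit through only the library where it is high, which favors large changes in both directions. With no limit on the share of cells, 5 of 10 were more than 2-fold higher and 2 lower. Of all genes with at least 10 UMIs, 6.29% and 6.26% were. Dusp5 rose 60.5-fold (52.4 to 70.3), to 115 CPM from 1.89 CPM, and Dusp1, the best known brake on p38 and JNK, from 3.53 to 81.8 CPM. In contrast Dusp6, a cytoplasmic phosphatase selective for ERK, fell from 24.5 to 8.90 CPM, a ratio of 0.364 (0.336 to 0.393). Dusp7, of the same ERK-selective subfamily, fell from 44.4 to 17.3 CPM.

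Several factors that destroy cytokine mRNAs were higher as well. Of 10 within the limit, 5 passed 2-fold upward and none downward, beside 2.39% and 0.606% of all genes. Without the limit it was 5 of 12 and none, beside 6.29% and 6.26%. Zfp36 (tristetraprolin), which binds AU-rich elements of messages such as Tnf, rose 13.2-fold (12.8 to 13.6), to 511 CPM from 38.7 CPM. Zc3h12a (Regnase-1), an endonuclease, rose from 10.8 to 74.1 CPM, and Btg2, which recruits deadenylases, from 19.1 to 371 CPM. The related Zfp36l2 and Zfp36l1 had log2 ratios of -0.33 and 0.09.

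Cytokine genes were mostly higher, although few of them were found in most cells. Of the 23 genes listed, 18 had at least 10 UMIs and 7 were within the limit. Tnf, Osm, Tnfsf9 and Vegfa were the 4 of these 7 above 2-fold, beside 2.39% of all genes. Tnf (ENSMUSG00000024401, chr17:35199367-35202007, mm10) stood at 152 CPM before LPS and at 3799 CPM after it, 24.9-fold (24.5 to 25.4) higher. Osm, a cytokine of the IL-6 family, rose from 8.28 to 107 CPM, and Tnfsf9 (4-1BB ligand) from 130 to 344 CPM. With no limit on the share of cells, 13 of the 18 were more than 2-fold higher and none lower, beside 6.29% and 6.26% of the 13393 genes with at least 10 UMIs. Among those outside the share limit, Csf3 (G-CSF) had 2.12 and 92.9 CPM. Il1a and Il1b had 0 UMIs at 0 h and 503 and 1005 at 1 h, so that, read against 3 counts, their log2 ratios were at least 7.45 and 8.45. Il6 was higher at 1 h but rare, with 0.192 and 0.994 CPM, Il10 had 0.0952 CPM at 1 h, and Il12a and Il12b had no UMI in either library. Ifnb1, the interferon gene, had 0 UMIs before LPS and 8 after it.

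Chemokine genes took up 0.463% of all UMIs before LPS and 1.99% after it. Cxcl2 (ENSMUSG00000058427, chr5:90903899-90905938, mm10), which attracts neutrophils through CXCR2, went from 112 to 7543 CPM and so was 67.1-fold (65.9 to 68.4) higher. Ccl4 rose from 1524 to 5033 CPM, Ccl3 from 1160 to 3414 CPM and Ccl2 from 910 to 2658 CPM. The last 3, which attract monocytes and other leukocytes, thus started from high levels and rose about as much as each other, by 3.30, 2.94 and 2.92-fold. Ccl3 and Ccl4 lie side by side, at chr11:83647843-83649378 and chr11:83648624-83664683 (mm10), and their RefSeq spans overlap. Ccl9, the other chemokine within the limit, had 823 and 993 CPM. Rarer members included Ccl7 with 63.8 and 137 CPM, Cxcl10 with 6.64 and 31.6 CPM and Ccl5 with 1.97 and 8.18 CPM. Cxcl1, close in sequence to Cxcl2, had 0.360 CPM at 1 h, and Cxcl5 and Cxcl9 had no UMI in either library.

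The interferon-response genes were split at this hour. The 24 with at least 10 UMIs had a median log2 ratio of -0.22, beside -0.12 over all 13393 genes with as many UMIs, and 11 were higher and 13 lower, where 33.6% of all such genes were higher. More than 2-fold, 8 were higher and 2 lower, beside 6.29% and 6.26%, all in a minority of cells. Among the higher ones, Irf1, a factor that NF-κB also induces, had 4.27 and 14.2 CPM, and Ifit1 0.435 and 1.99 CPM, the latter from 0.716% of cells. On the lower side, Stat2 went from 14.1 to 5.05 CPM, or 0.359-fold (0.323 to 0.398). Irf7 was lower by less than 2-fold, with 8.47 and 4.92 CPM. Ddx58 (RIG-I), the 1 gene of the list within the share limit, had 23.4 and 14.2 CPM.

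Most genes of the LPS receptor and its adaptors stayed within 2-fold. Of 13 within the limit, Ikbke alone passed 2-fold, from 15.3 to 30.8 CPM, beside 2.39% of all genes that did so upward. Ikbke encodes a kinase related to Tbk1. Tlr4 itself had 20.9 and 14.6 CPM, Myd88 26.2 and 32.3 CPM, and Cd14 771 and 1030 CPM. The median log2 ratio of the 13 was 0.15. Over the 23 genes of the list, 15 were higher and 8 lower, with log2 ratios between -0.88 and 1.01.

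Effector genes of inflammation rose in part. Nlrp3, the sensor of the inflammasome, rose 20.7-fold (19.9 to 21.5), to 595 CPM from 28.8 CPM, and the adhesion receptor Icam1 from 39.7 to 201 CPM. Marcksl1 rose from 40.7 to 484 CPM, the C-type lectin Clec4e (Mincle) from 166 to 617 CPM and the cystine transporter Slc7a11 from 28.4 to 82.5 CPM. These 5 of 12 within the limit passed 2-fold, beside 2.39% of all genes that did so upward. Without the limit 7 of 19 did, beside 6.29%. Acod1, which makes itaconate, had 2.17 and 56.7 CPM and Ptgs2 (COX-2) 4.13 and 35.6 CPM, both in too few cells to be within the limit. Nos2, the inducible nitric oxide synthase, had 0.0810 and 0.0529 CPM and was thus hardly detected.

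Of 19 cholesterol synthesis enzymes within the limit, 2 were more than 2-fold higher and none lower, beside 2.39% and 0.606% of all genes. Hmgcs1 (ENSMUSG00000093930), which acts early in the pathway, stood at 112 and 412 CPM, or 3.69-fold (3.61 to 3.77). At 1.5-fold, 6 of 19 were higher, Cyp51, Sc5d, Idi1 and Hsd17b7 among them, against 4.38% of all genes. Others of the same pathway had lower levels at 1 h, such as Fdps with 581 and 532 CPM and Mvd with 106 and 93.5 CPM. Insig1, a sterol-sensing brake on the transcription factor SREBP, rose from 41.4 to 224 CPM. Srebf2, the gene of the main sterol-responsive SREBP, had 79.2 and 93.6 CPM, and Scd2, a desaturase under SREBP control, had 369 and 275 CPM.

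Several survival and stress genes were higher, and the BCL2 family was mixed. Mcl1, which blocks apoptosis, rose 3.77-fold (3.73 to 3.81), to 1789 CPM from 475 CPM, and Bcl2l11 (BIM), which promotes it, from 21.6 to 215 CPM. Other members of the family given here were under 2-fold, in both directions. Bcl2 had 27.1 and 17.6 CPM, Bid 41.0 and 30.2 CPM and Bbc3 42.0 and 33.5 CPM, while Bcl2l1 had 54.3 and 55.8 CPM. Mean UMIs per thinned cell rose from 1.17 to 1.93 for Bcl2a1a, from 2.95 to 4.39 for Bcl2a1b and from 3.94 to 5.13 for Bcl2a1d. For Pmaip1 the means were 0.40 and 0.57. Cflar (c-FLIP), an inhibitor of caspase-8, rose from 46.9 to 288 CPM and the kinase gene Pim1 from 63.3 to 298 CPM. Phlda1 rose from 13.2 to 358 CPM and Ppp1r15a (GADD34), which restarts translation after stress, from 27.6 to 287 CPM. In all, 8 of 17 genes within the limit passed 2-fold upward and none downward, beside 2.39% and 0.606% of all genes. Without the limit it was 10 of 21 and none, beside 6.29% and 6.26%. In the heat shock list Dnajb1, at 23.5 and 90.2 CPM, was the 1 of 8 within the limit past 2-fold, beside 2.39%. Without the limit it was 1 of 9, beside 6.29%. The median log2 ratio of the 8 was 0.11.

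Genes of G protein signaling moved in both directions. Of 10 within the limit, 4 were more than 2-fold higher and 2 lower, beside 2.39% and 0.606% of all genes. Without the limit it was 7 and 3 of 20, beside 6.29% and 6.26%. The medium-chain fatty acid receptor Gpr84 rose from 38.0 to 266 CPM, the complement receptor C5ar1 from 16.2 to 57.2 CPM and Rgs1, which shortens G protein signals, from 94.2 to 243 CPM. Gpr183, a receptor for oxysterols, fell from 100.3 to 42.9 CPM. In the lineage list Socs3, a feedback inhibitor of STAT3, rose from 14.7 to 164 CPM and Id2 from 19.7 to 40.3 CPM. They were the 2 of 14 genes within the limit that passed 2-fold, beside 2.39% of all genes that did so upward. Without the limit 3 of 20 did, beside 6.29%. Irf8, a factor of macrophage and dendritic cell development, had 97.6 and 84.4 CPM. Csf1r, the receptor for M-CSF, had 89.2 and 85.0 CPM.

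The metallothionein genes Mt1 and Mt2, which bind zinc and lie next to each other on chromosome 8, reached 1719 CPM from 308 CPM and 484 CPM from 69.6 CPM. Mt1 was among the 10 largest gains of all genes. Hilpda, a lipid droplet protein gene also induced by hypoxia, rose 4.15-fold to 53.9 CPM. It was the 1 of 15 glycolysis and hypoxia genes past 2-fold, beside 2.39% of all genes that were so upward. Slc2a1, the glucose transporter GLUT1, had 67.9 and 104 CPM, and the glycolytic enzymes Gapdh, Pkm and Ldha had log2 ratios of 0.08, -0.03 and -0.07.

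Most replication-dependent histone genes were lower. Of 8 within the limit, 7 were more than 2-fold lower and none higher, beside 0.606% of all genes, and the 14 listed had a median log2 ratio of -1.20. Without the limit 10 of 14 were more than 2-fold lower, beside 6.26%. Hist1h1b (H1.5) fell to 206 CPM from 491 CPM, or 0.418-fold (0.412 to 0.426), and Hist1h2ae from 249 to 83.7 CPM. Hist1h1d (H1.3) fell from 71.4 to 12.2 CPM, the lowest ratio of all 5777 genes at 0.170 (0.160 to 0.181). These genes have near-identical copies between which reads can be split, and their messages mostly lack the poly(A) tail by which the kit captures RNA, so single values are uncertain. The 18 proliferation genes, which are read through ordinary poly(A) tails, did not go with them. None of them passed 1.5-fold, beside 4.38% of all genes higher and 2.08% lower, so that count alone is near the share of all genes. Their log2 ratios lay between -0.37 and 0.19 with a median of -0.09, and Mki67 and Top2a had ratios of 1.02 each. Pcna, the sliding clamp of replication, had 109 and 125 CPM.

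Next lowest was a gene for an inhibitor of thioredoxin that also limits glucose uptake. Txnip fell from 208 to 37.7 CPM, or 0.182-fold (0.175 to 0.188). Of the other lowest ratios, 4632415L05Rik is a transcribed pseudogene in RefSeq and Snhg20 a long noncoding RNA, with 56.8 and 13.4 CPM and 45.3 and 12.5 CPM. Dyrk3, a protein kinase gene, fell from 35.9 to 11.2 CPM and Irf2bp2, a gene for a transcriptional corepressor, from 54.6 to 18.0 CPM. Losses in CPM were largest for abundant genes that hardly changed in ratio, such as mt-Co3 and Eef1a1 with log2 ratios of -0.13 and -0.20.

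Genes past the limits had shorter spans in both directions. The RefSeq span from start to end was known for 5743 of the 5777 genes and had a median of 23201 bp, with 12.4% of spans under 5000 bp. Among higher genes the median was 12859 bp and 27.2% were under 5000 bp (37 of 136 with a span), and among lower genes it was 5691 bp and 45.5% (15 of 33). Tnf, Cxcl2, Dusp2 and Ier3 are among the compact ones, with spans of 2641, 2040, 2219 and 1199 bp, and the histone genes are shorter still, Hist1h1b at 794 bp.

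The response was next followed cell by cell, after each cell had been thinned to 20000 UMIs so that depth was equal. At 0 h a Tnf UMI was found in 77.7% of cells (exact binomial interval 76.0 to 79.3) and the median cell held 2, whereas at 1 h every cell held at least 1 and the median was 76. Between the 10th and 90th percentile, 1 h cells ranged from 31 to 116 Tnf UMIs. Ier3 went from a median of 2 to 69 UMIs and Nfkbia from 3 to 29. The spread between 1 h cells, given as the standard deviation over the mean, was 0.433 for Tnf, 0.357 for Nfkbia and 0.446 for Junb. It was wider for the chemokines that were already high at 0 h, at 0.921 for Ccl2, 0.679 for Ccl3 and 0.673 for Ccl4, and wider for Dusp2 at 1.01.

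**Figure D3:**
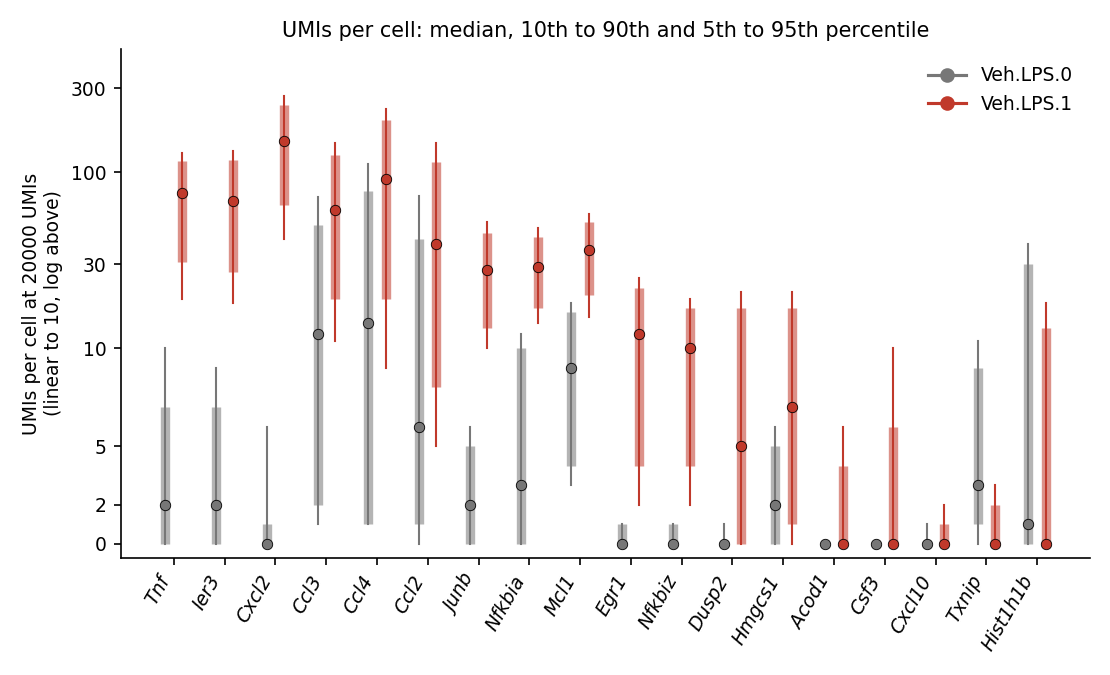
UMIs per cell of 18 genes in Veh.LPS.0 (grey) and Veh.LPS.1 (red) after thinning every cell to 20000 UMIs, on an axis that is linear to 10 and logarithmic above. Points are medians, thick bars span the 10th to 90th and thin lines the 5th to 95th percentile of 2481 and 3073 cells, and for Tnf, Ier3, Cxcl2, Junb and Nfkbia the 5th percentile at 1 h lies at or above the 90th percentile at 0 h.

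Other genes were detected in more cells at 1 h than at 0 h, but still in a minority. Csf3 was found in 0.846% of cells at 0 h and in 40.3% (38.6 to 42.1) at 1 h, and Acod1 in 1.98% and 31.8% (30.1 to 33.4). Ptgs2 went from 1.89% to 18.2%, Cxcl10 from 7.21% to 14.3%, and Il1b from 0 of 2481 cells, with 3 cells or 0.121% as the limit for cells with a UMI, to 4.59%. The 10% of 1 h cells with most UMIs held 68.6% of those of Acod1, 62.3% of those of Csf3 and 87.5% of those of Ptgs2, beside 17.6% for Tnf. By this share these genes differed far more between cells of the library than Tnf did, but the share also depends on the level. Mean UMIs per cell were 1.12 for Acod1, 1.88 for Csf3 and 0.693 for Ptgs2, against 75.3 for Tnf. The variance over the mean was 7.06, 8.44 and 9.17, against 14.1 for Tnf. The standard deviation over the mean was 2.5, 2.1 and 3.6, against 0.433 for Tnf. These measures thus place Tnf at opposite ends, and both depend on the level as well.

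UMIs were then summed over the genes of a list in each cell. The immediate-early genes gave a median of 23 UMIs per thinned cell at 0 h and 177 at 1 h, and 3030 of 3073 cells at 1 h, or 98.6%, lay above 60 UMIs, the 99th percentile of 0 h cells. The highest 0 h cell held 176 such UMIs, and 1529 of the 1 h cells did not exceed it. Against the 99th percentile, the share was 96.1% for NF-κB genes, 94.7% for cytokine genes and 89.7% for survival genes. Single genes carried much of these sums. Nfkbia had a 1 h median of 29 UMIs beside 52 for the NF-κB list, and Mcl1 one of 36 beside 100 for the survival list. Ier3 had 69 beside 177 for the immediate-early list. The cytokine sum was mostly Tnf, whose 1 h median was 76 UMIs beside 95 for the list. For Tnf alone the share was 95.7%. The share was 19.9% for the chemokine list and 1.33% for the interferon-response list. For chemokines the 99th percentile of 0 h cells was already 544 UMIs, against a 1 h median of 377. Histone UMIs had a median of 7 per cell at 0 h and 3 at 1 h and a 95th percentile of 111 and 45. Proliferation genes had medians of 37 and 38 UMIs.

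The 43 cells of Veh.LPS.1 that stayed at or under the limit for immediate-early genes were largely low for the other lists too. Of these, 38 (88.4%) were also low for NF-κB genes, which is 31.7% of the 120 cells low for that list, and 37 were low for immediate-early, NF-κB and cytokine genes alike. Before thinning they had a median of 24890 UMIs, against 29401 in the other 3030 cells, and their median mitochondrial share was 7.31%, against 6.92%. Their proliferation genes gave a median of 63 UMIs with quartiles of 13.5 and 85, against 37 with quartiles of 13 and 84. The part of depth and of cell cycle in these low values was not tested.

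Before LPS, Cxcl2 was concentrated in few cells. At least 1 Cxcl2 UMI was found in 18.7% of 0 h cells, the 10% of cells with most UMIs held 95.8% of them, and 20 of 2481 cells (0.806%, 0.493 to 1.24) held 53.0%. These 20 cells had at least 65 Cxcl2 UMIs each, the 10th percentile of 1 h cells. Their median of Ccl4 was 88.5 UMIs, against 14 in the other 0 h cells and 92 at 1 h, and their median of Ccl3 was 68 UMIs, against 12 and 61. For Tnf, however, their median was 10.5 UMIs, against 2 in the other 0 h cells and 76 at 1 h. Ier3 had 10, against 2 and 69, Junb 3.5, against 1 and 28, and Egr1 0, against 0 and 12. In Ccl3 and Ccl4 these 20 cells were thus near 1 h cells. In Tnf, Ier3 and Junb they were above the other 0 h cells but far under 1 h cells. With LPS the 10% of cells richest in Cxcl2 held 18.4% of its UMIs.

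Within Veh.LPS.1, genes that rose did not all vary together. Across the 3073 thinned cells of this library, which share library and depth, Spearman's rho was 0.836 for Ccl3 with Ccl4, 0.680 for Mt1 with Mt2, 0.601 for Ccl4 with Ccl2 and 0.503 for Tnf with Ier3. It was 0.443 for Hmgcs1 with Insig1. Cxcl2 went less closely with the CC chemokines, at 0.286 with Ccl4 and 0.176 with Ccl2, and Ccl3 had -0.188 with Hmgcs1 and -0.0805 with Egr1. These values describe the cells of 1 library.

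The same hour of LPS was also given to FLMs that had taken up DHA, in libraries that share no sample with the vehicle pair (DHA.LPS.0 with 698 cells and DHA.LPS.1 with 795). Of the 138 genes higher in vehicle cells, 137 were higher with DHA too, beside 31.5% of all 5777 genes, and 126 by more than 2-fold, beside 2.6%. All 35 lower genes were lower with DHA, beside 68.5% of all genes, and 28 by more than 2-fold, beside 0.537%. The level in DHA.LPS.1 was above both Con and DHA.LPS.0 for 137 of the 138, beside 15.6% of all genes, and below both for all 35, beside 49.6%. The log2 ratios of the 2 pairs had a Pearson's r of 0.96 across the 5777 genes, which are not independent of each other. The median over the 138 genes was 1.89 without and 1.72 with DHA, and 87 of them were smaller with DHA, beside 41.5% of all genes. Since the 138 were chosen for their size in the vehicle pair, this count is a description only. The kept cells were 55.6% and 53.9% of barcodes in the vehicle pair and 18.5% and 18.1% in the DHA pair, and the part of this in the comparison was not tested.

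**Figure D4:**
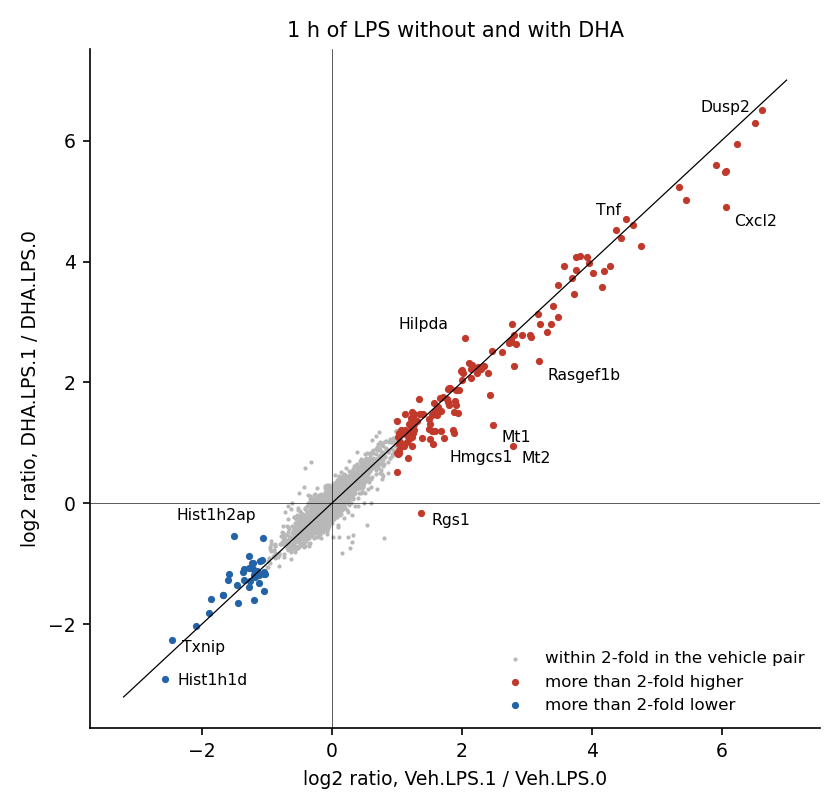
Log2 ratio of CPM after 1 h of LPS in vehicle cells (x axis) and in DHA-treated cells (y axis), 1 point per gene, with the line of equal ratios. Genes more than 2-fold higher (red) or lower (blue) in vehicle cells lie close to the line, with Rgs1, Mt2, Mt1 and Cxcl2 below it and Hilpda above.

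The size of the response differed between the pairs for some genes. Of the 138 genes, 10 differed by more than 1.5-fold between the pairs, beside 0.45% of all genes. The counting interval of the ratio of ratios excluded 0 on the log2 scale for 82 of the 138 and 15 of the 35, beside 33.8% of all genes. Mt2 had the lowest ratio of ratios, with a log2 ratio of 2.80 in vehicle cells and 0.94 with DHA, where the 0 h level was already 268 CPM against 69.6 CPM. Rgs1 had log2 ratios of 1.37 and -0.15, and Mt1 2.48 and 1.29. For Cxcl2 they were 6.07 and 4.90, with 1 h levels of 7543 and 7011 CPM and 0 h levels of 112 and 235 CPM. Tnf, Ier3 and Nfkbia hardly differed, with 4.64 and 4.60, 4.45 and 4.40, and 2.77 and 2.71. Hilpda had the larger ratio with DHA, at 2.05 and 2.74. Hist1h2ap, a histone gene with near-identical copies, fell less with DHA, at -1.49 and -0.54.

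For several of these genes the 0 h level already differed from that of Con, the cells in full serum. Levels of Cxcl2 were 4.96 CPM in Con, then 112, 7543 and 13362 CPM at 0, 1 and 4 h of LPS in vehicle cells. The 4 h library is set against the same 0 h library, so its values are given side by side only. Ccl4 had 230 CPM in Con before its 1524 CPM at 0 h, and Hmgcs1 had 23.4 CPM before 112 CPM. Txnip had 147 CPM in Con and 208, 37.7 and 111 CPM at 0, 1 and 4 h. Some transcripts that were high at 1 h were low again at 4 h, such as Tnfaip3 with 166 and 27.1 CPM, Btg2 with 371 and 37.2 CPM and Fos with 156 and 6.66 CPM. Those found in a minority of cells at 1 h were higher at 4 h, with 92.9 and 1622 CPM for Csf3, 56.7 and 885 CPM for Acod1 and 35.6 and 465 CPM for Ptgs2. Stat2 had 5.05 CPM at 1 h, below its 14.1 CPM at 0 h and its 19.5 CPM at 4 h.

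**Figure D5:**
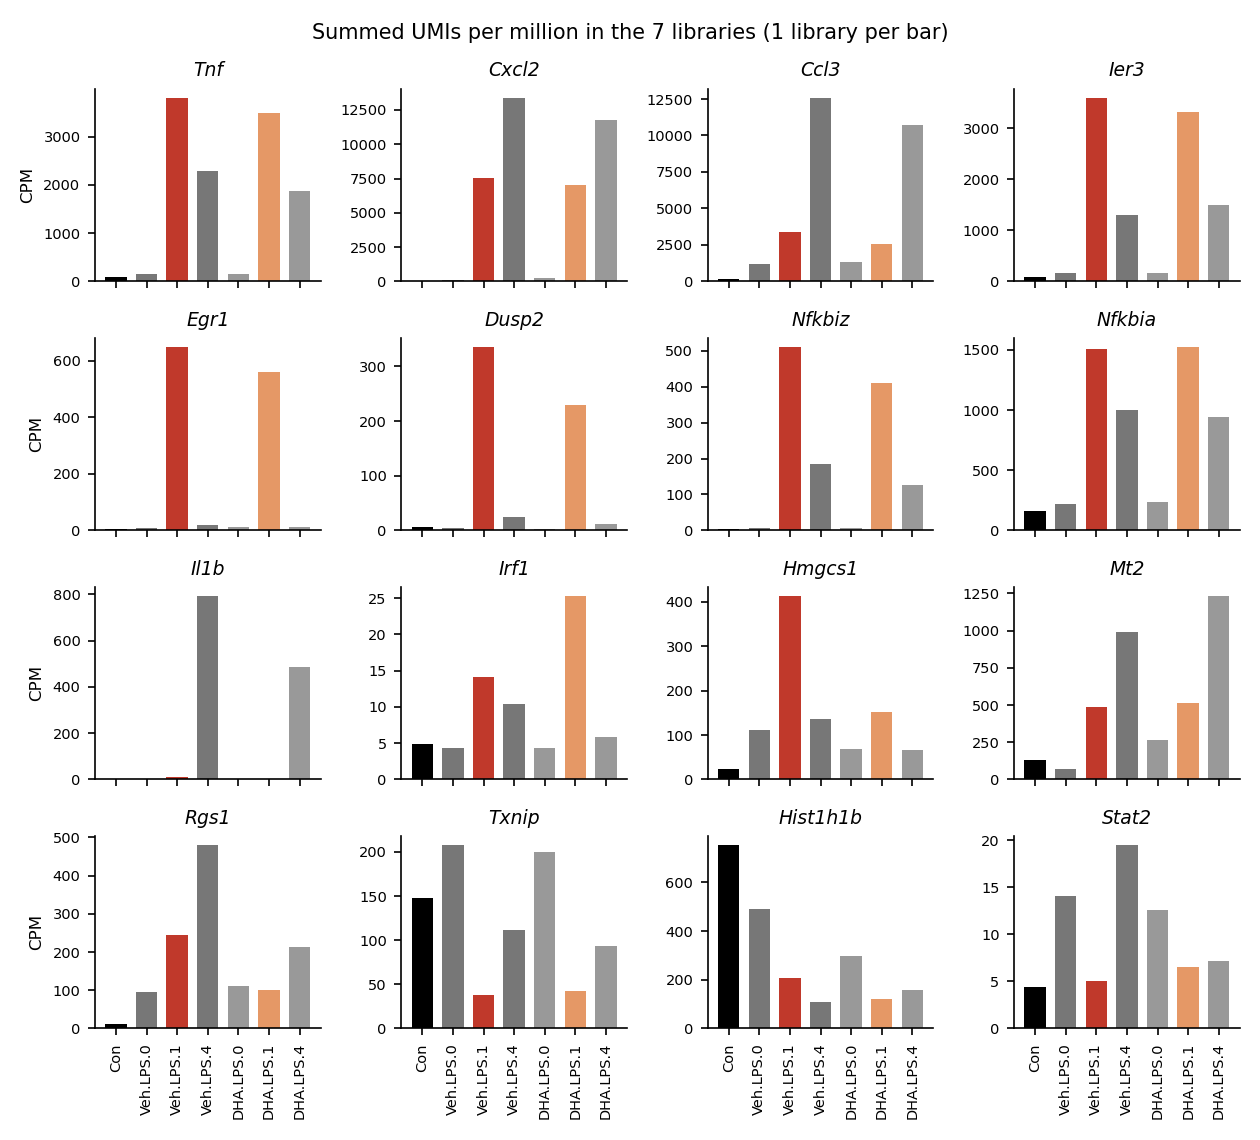
Level in CPM (y axis, from 0, scaled per gene) of 16 genes in the 7 libraries, 1 bar per library, with Veh.LPS.1 in red and DHA.LPS.1 in orange. Egr1, Dusp2 and Ier3 are highest at 1 h in both pairs, Il1b and Ccl3 at 4 h, and Txnip and Stat2 are lower in Veh.LPS.1 than in Veh.LPS.0 and Veh.LPS.4.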

How the data were processed

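Per the labels, FLMs were lifted, captured with the 10x Chromium 3′ kit (v3 chemistry) and sequenced. The authors deposited, for each of 7 libraries, the counts of UMIs per gene in every barcode called as a cell, without normalization. The file headers and the submitters' processing notes name Cell Ranger 3.1.0 and mm10; the version in the study's methods differs. From these counts, barcodes were filtered by the study's limits, UMIs summed per gene and library, and ratios of CPM formed with exact (Clopper-Pearson) 95% binomial intervals, which cover counting error only. With 1 library per condition no test was possible. A count of 0 was read against 3 counts. Symbols were matched to RefSeq (GRCm38.p6, which is mm10) directly for 5641 of the 5777 genes and through synonyms for 104 more. The members, the gene lists and the limits were chosen with earlier results of these data known.

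Genes named are those of the 19 lists and of the marker lists, the 15 highest and 10 lowest ratios among genes past the 2-fold and 50% limits, the 10 largest gains and 5 largest losses in CPM, and the 5 highest and 5 lowest ratios of ratios against the DHA pair. Cells were thinned to 20000 UMIs with a fixed seed. No doublet caller was run, since the markers showed no other cell type, so doublets of like cells may remain. The 5% of cells with most UMIs were left out as an alternative. Alternatives covered scaling (edgeR 4.0.16 for TMM, sctransform 0.4.2), limits on genes and limits on barcodes. Other steps used Python 3.11.15 with numpy 2.4.6, scipy 1.17.1 and pandas 2.3.3, and were tested on simulated data. Promoter motifs were not analysed here. A few members of the lists are counted but not reported here by name.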

Additional observations from a re-analysis of the deposited data

Results flagged for a closer look

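Rgs1 drew attention because its rise in vehicle cells was absent with DHA. Its log2 ratio after 1 h of LPS was 1.369 in vehicle cells, from 94.2 to 243 CPM. In DHA-treated cells it was -0.1527, from 111 to 99.7 CPM. That is a small value, and 68.5% of all 5777 genes were lower by any amount in the DHA pair. Bc1, a noncoding RNA named here after its values were seen, which was under 2-fold in both pairs, had log2 ratios of 0.8095 and -0.5675. Each rests on 1 library per condition, and neither difference was tested.

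The barcodes removed by the filter also carried the response. In 1980 removed barcodes of Veh.LPS.0 and 2632 of Veh.LPS.1, with 15202851 and 20158973 UMIs, Tnf had 243.9 and 5804.6 CPM. All 138 genes higher in kept cells were higher there, with a median log2 ratio of 1.95 beside 0.17 over all 5777 genes. Most of the removed barcodes had a high mitochondrial share. Barcodes with 20% or more of their UMIs from mitochondrial genes were 37.8% and 35.8% of all barcodes of the 2 libraries. All of these were removed, while 55.6% and 53.9% of barcodes were kept. The part of such cells in these values was not tested.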

How the results depend on the processing

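No paired analysis was possible because there was 1 library per condition. The counts of 138 higher and 35 lower genes moved most with the limit on the share of cells. A limit of 25% gave 174 and 91 genes, and no limit gave 842 and 839 of 13393 genes with at least 10 UMIs, many of them rare. A 1.5-fold limit gave 253 and 120. UMIs corrected by SCTransform, read with a pseudocount of 1 that shrinks low genes by construction, gave 81 and 7, a share of 92.0% higher against 79.8%, and all of these were among the 138 and 35. Thinned cells gave 120 and 15 of 3927 genes, and no filter on barcodes 107 and 15 of 3492, both with fewer genes past the share limit. TMM factors shifted the median of all genes by 0.103 on the log2 scale and gave 163 and 28, and median-of-ratios factors, with a shift of 0.109, the same counts. The remaining 4 settings (total without mitochondrial genes, mean of CPM per cell, more than 10000 UMIs and under 10% mitochondrial) and the removal of the 5% of cells with most UMIs gave 136 to 141 higher and 34 or 35 lower genes. None of the 1730 values of the 173 genes recomputed changed direction, and 590 moved by more than their counting interval. TMM, median-of-ratios and the total without mitochondrial genes shift all genes alike, by at most 0.109. They could not reverse genes past 2-fold, and the other settings reuse the same libraries. The lack of reversals is thus a description only. SCTransform also lowered the median log2 ratio of the immediate-early list from 2.77 to 0.68, of cytokines from 2.29 to 0.22, of chemokines from 1.56 to 0.27 and of effectors from 0.63 to 0.36. The median also fell in other lists, such as MAP kinase phosphatases from 1.22 to 0.36 and NF-κB genes from 1.27 to 0.62. For ubiquitin-linked feedback it fell from 0.63 to 0.20, and for mRNA decay factors from 0.56 to 0.19. Depth limited genes under a few CPM, whose cells with a UMI are few.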
